A study of Mus musculus with 32 samples.

Results

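Glutamate receptor subunits and the scaffold proteins of the postsynaptic density were described by 40 genes of the 25239 in the exon count tables of mouse amygdala. They were taken by gene symbol from a list drawn up with earlier results of these data known. All 40 were found and passed the filter on low counts. The list held 5 subunits of the NMDA receptor, 4 of the AMPA receptor and 5 of the kainate receptor, 6 metabotropic receptors, 3 auxiliary subunits of AMPA receptors (TARPs), 4 MAGUK, 4 SAPAP, 3 Shank and 2 Homer scaffolds, 3 genes of calmodulin signalling and the Arf exchange factor Iqsec2.

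The study followed the amygdala transcriptome of WT mice at baseline, after acute stress and after chronic stress. In each state, 4-thiouridine (4sU, 100 mM in DMSO) or DMSO alone had been placed stereotaxically into the amygdala, 24 h ahead of dissection, so every group carries an injection and there is no uninjected amygdala group. 4sU is a uridine analogue that enters newly made RNA, and after alkylation of the RNA it is read as a T-to-C conversion. With 4sU the libraries numbered 5 at baseline, 5 after acute and 4 after chronic stress, and with DMSO 4, 5 and 3 in that order, each of bulk RNA from the amygdala of both sides. The labels name neither the stressors nor the animals behind each library, and each p-value is set against library spread that may be in part technical.

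Glutamate opens the AMPA, kainate and NMDA receptor channels, and NMDA receptors admit calcium when the membrane is depolarised. Calcium then binds calmodulin and activates the kinase encoded by Camk2a and Camk2b, which adjusts the number of AMPA receptors at the synapse. MAGUK, SAPAP, Shank and Homer proteins are layered under the membrane and hold receptors and enzymes in place, while metabotropic receptors act through G proteins on either side of the synapse. In the amygdala this machinery is known for its part in fear learning.

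Promoters are shown for 4 members on which the results below turn: Grin1 and Gria2, whose levels lay on opposite sides between groups, Grm8, the 1 member called for acute stress in DMSO mice, and Camk2b, a member with an excess of conversions. They come from RefSeq (GRCm38.p6), which had an entry for 29 of the 40 members, and each spans 250 bases before and 50 bases after an annotated start. All 4 are read on the minus strand, Grin1 at chr2:25319138-25319437, Gria2 at chr3:80802786-80803085, Grm8 at chr6:28135097-28135396 and Camk2b at chr11:6065699-6065998. Capitals mark matches, on either strand, to the Sp1 motif GGGCGG.
Grin1: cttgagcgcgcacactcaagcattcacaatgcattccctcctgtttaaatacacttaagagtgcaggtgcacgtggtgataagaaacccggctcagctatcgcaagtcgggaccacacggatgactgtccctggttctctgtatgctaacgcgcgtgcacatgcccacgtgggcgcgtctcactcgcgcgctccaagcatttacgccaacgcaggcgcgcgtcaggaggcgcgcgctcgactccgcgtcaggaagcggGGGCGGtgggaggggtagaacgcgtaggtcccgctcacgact
Gria2: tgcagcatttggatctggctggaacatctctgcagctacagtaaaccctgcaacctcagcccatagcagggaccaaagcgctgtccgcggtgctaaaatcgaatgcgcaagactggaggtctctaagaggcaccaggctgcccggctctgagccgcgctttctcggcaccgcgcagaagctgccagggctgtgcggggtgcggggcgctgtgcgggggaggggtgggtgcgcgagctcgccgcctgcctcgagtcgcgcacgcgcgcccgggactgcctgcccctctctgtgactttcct
Grm8: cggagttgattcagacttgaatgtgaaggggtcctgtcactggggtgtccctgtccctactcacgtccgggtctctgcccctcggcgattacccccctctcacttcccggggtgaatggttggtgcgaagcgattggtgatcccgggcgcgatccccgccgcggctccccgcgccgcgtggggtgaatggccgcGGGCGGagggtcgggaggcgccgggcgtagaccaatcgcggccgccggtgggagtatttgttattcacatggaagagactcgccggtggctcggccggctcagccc
Camk2b: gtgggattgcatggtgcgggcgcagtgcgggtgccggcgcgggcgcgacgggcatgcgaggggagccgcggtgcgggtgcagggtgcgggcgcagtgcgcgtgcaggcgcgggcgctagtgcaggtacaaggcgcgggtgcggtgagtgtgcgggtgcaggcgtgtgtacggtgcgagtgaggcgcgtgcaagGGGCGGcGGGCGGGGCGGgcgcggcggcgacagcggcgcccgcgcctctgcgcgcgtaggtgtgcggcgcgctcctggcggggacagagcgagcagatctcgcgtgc
The Sp1 motif was matched in 1 place in Grin1, in 1 in Grm8 and in 3 in Camk2b, where 2 matches overlap in the last run of capitals, and not in the Gria2 window. Over the 29 members with an entry, 19 (65.5%) had a match, against 38.2% of all 27025 genes with an entry, and the median GC content was 60.7% in the members' promoter entries and 52.7% in all. A gene was counted if any of its entries matched. Members had 43 entries for 29 genes and the whole set 32851 for 27025, so the shares do not rest on equal numbers of windows per gene. The cyclic AMP response element TGACGTCA was matched in 0 of the 29 members and in 2.03% of all genes, and TATAAA in 3 members (10.3%) and in 15.7% of all genes. None of these matches says whether a factor binds there.

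Amygdala libraries held 16150316 to 21228741 exon counts. The share of a library's reads in 3′ UTR intervals was 16.1 to 17.4% in the 10 baseline and acute 4sU libraries and 18.2 to 23.9% in the other 16. The mean log2 CPM of the 40 members (CPM, counts scaled to library size after TMM) was 7.14 to 7.32 in the first and 6.47 to 7.07 in the second. Summed CPM of 10 oligodendrocyte markers followed the same division, at 6971 to 10206 against 13429 to 29234. Comparisons that cross this division (4sU against DMSO at baseline and under acute stress, and chronic stress against baseline in 4sU mice) cannot be told apart from it, while both acute comparisons within an arm, chronic stress in DMSO mice and 4sU against DMSO under chronic stress lie on one side. In bulk tissue, fewer cells of a type and less RNA per cell cannot be told apart. Genes of other regions were present throughout: 8 striatal markers summed to 508 to 4857 CPM and 5 choroid plexus markers to 37.0 to 5728, and no listed marker was at 0 in all libraries of a group.

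Levels between genes were compared per exon length as TPM (reads per exon base, scaled to the same sum in each library). In baseline DMSO mice the highest member was Nrgn, which encodes the calmodulin-binding protein neurogranin, at 1661 ± 222 TPM (SD, n = 4). It was followed by Camk2a at 784 ± 81.2, Camk2b at 590 ± 44.8 and Dlg4, the main MAGUK scaffold of the postsynaptic density, at 502 ± 15.5. The ranges of these 4 genes over libraries did not overlap. Homer2, a scaffold that links metabotropic receptors to Shank, was lowest at 9.81 ± 0.80 TPM, and Nrgn exceeded it 169-fold. Of 39 neighbouring pairs in this order, 26 had overlapping library ranges and are not separated by their spread.

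Among receptor subunits in baseline DMSO mice, the AMPA subunits led: Gria1 reached 340 ± 24.5 TPM, Gria2, the subunit that keeps calcium out of the channel, 235 ± 12, Gria3 128 ± 5.20 and Gria4 66.5 ± 7.93. Grin1, the NMDA subunit every receptor needs, was at 204 ± 11.5, and its partners were lower, Grin2b at 49.6 ± 4.57, Grin2c at 28.3 ± 2.43, Grin2a at 20.4 ± 2.78 and Grin2d at 19.6 ± 2.16. Grik5 was the most abundant kainate subunit at 160 ± 10 TPM, above Grik2 at 40.3 ± 2.90 and Grik1 at 12.9 ± 1.40. Grm5, which acts through phospholipase C and binds Homer, was the most abundant of the 6 metabotropic receptors at 120 ± 2.58. Among receptors known from presynaptic terminals Grm7 was at 50.7 ± 2.24, Grm4 at 20.8 ± 2.85, Grm8 at 16.1 ± 1.25 and Grm2 at 14.1 ± 2.99, the latter 2 having the lowest means of the metabotropic receptors.

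**Figure D1:**
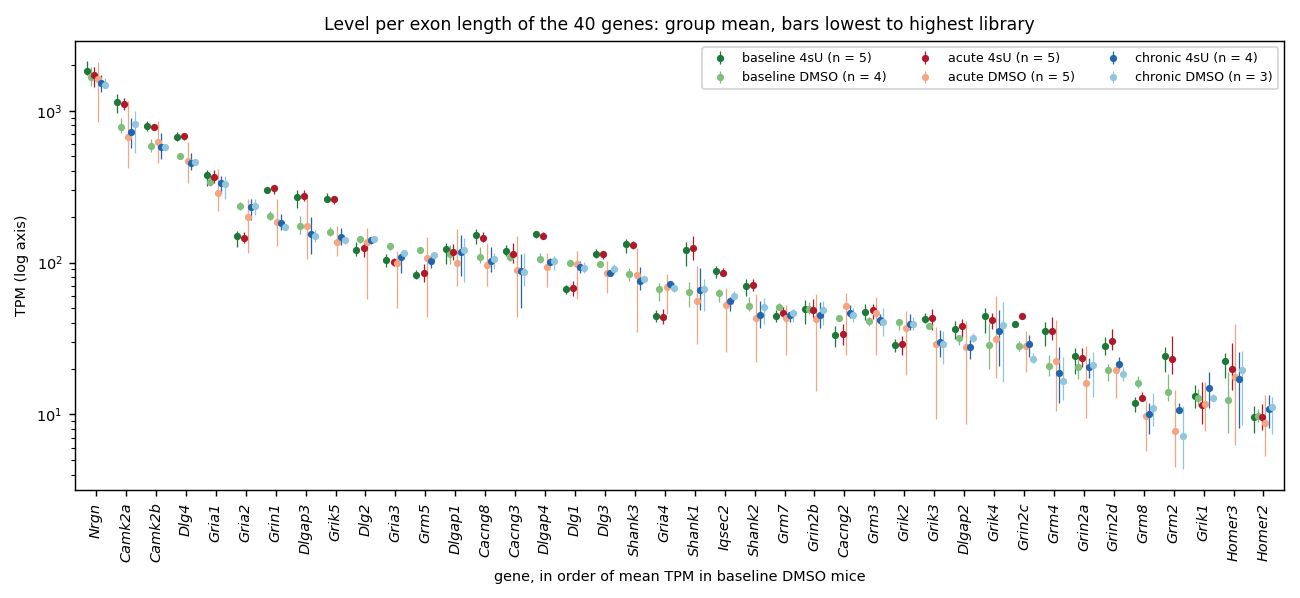
Level of each of the 40 genes in TPM (log axis) by group, with points at the group mean and bars from the lowest to the highest library. Nrgn lies near 1661 TPM and Homer2 near 9.81 in baseline DMSO mice, and the acute DMSO bars are the longest for many genes.

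Spread between libraries of a group was a feature of some members. The pooled within-group SD of log2 CPM had a median of 0.239 over the 40 members and of 0.204 over all 16310 genes of that fit. It was below 0.15 for 4 members (Dlg3 0.109, Gria4 0.13, Dlgap4 0.14, Grik5 0.148) and above 0.4 for another 4 (Homer3 0.803, Grik4 0.569, Grm4 0.466, Grm2 0.412). These 8 were singled out after their values were seen.

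Homer3, a scaffold of the Homer family whose exons overlap those of Ddx49 on the opposite strand, stood in acute DMSO replicates 1 to 5 at 5.71, 28.5, 5.86, 5.06 and 31.1 CPM. Replicates 2 and 5 were several times above the other 3, and the same 2 libraries had the highest sums of the 9 glutamatergic neuron markers in their group, 903 and 1142 CPM against 195 to 320. In chronic 4sU mice Homer3 read 20, 20.1, 7.22 and 6.44 CPM, where those markers summed to 874, 949, 409 and 491. Grik4, a high-affinity kainate subunit, went the same way, with 20.2, 53.7, 26.2, 21.6 and 67.8 CPM in acute DMSO replicates 1 to 5. Grm4, a presynaptic receptor of the group that also holds Grm8, ran opposite, at 65.5, 19.9, 28.8, 42.4 and 19.9 CPM in these libraries, beside striatal marker sums of 4857, 1008, 2052, 3531 and 1038. The part of tissue composition in these spreads was not tested.

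Acute DMSO replicate 2 stood apart from its group in several members. Grin2b, the NMDA subunit with the large tail that binds Camk2a, read 404, 140, 289, 393 and 484 CPM in acute DMSO replicates 1 to 5. Grm5 read 419, 151, 285, 356 and 309, and Grik3 112, 34.2, 101, 109 and 74.8. Replicate 2 was lowest in all 3 genes, yet it was highest for Nrgn, at 1102 CPM against 350 to 828. This library also had the highest 3′ UTR read share, 23.9%, against 18.5 to 19.0% in the other 4 of its group, and results that rest on it are given with and without it.

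**Figure D2:**
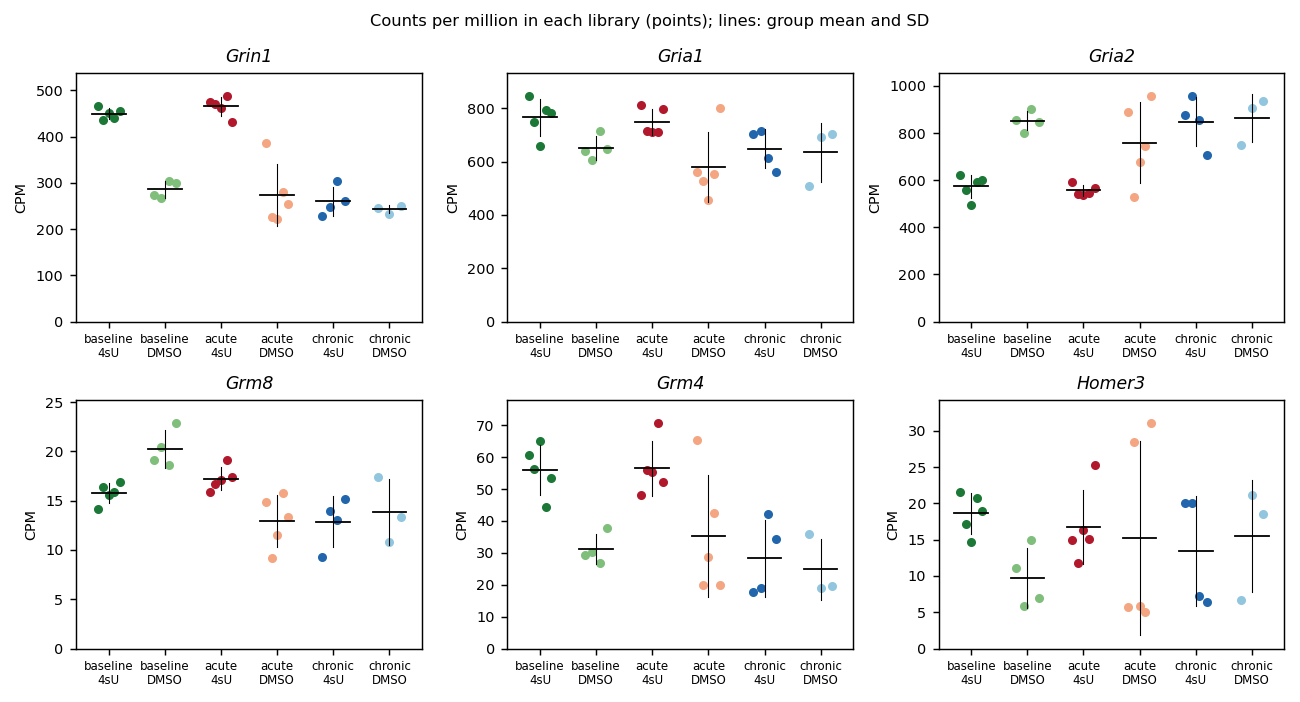
CPM of 6 members in every library by group, with lines at the group mean and SD. Grin1 and Gria2 separate the baseline and acute 4sU libraries from the DMSO libraries of the same state on opposite sides, apart from acute DMSO replicate 2 for Gria2, Grm8 is lower in each acute DMSO library than in each baseline DMSO library, and Grm4 and Homer3 spread within groups.

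Acute stress against baseline was first asked in 4sU mice, where both groups lie on the low side of the 3′ UTR read share. No member was called by edgeR's quasi-likelihood test (adjusted p under 0.05), against 0.269% of 15995 genes, and DESeq2 also called 0 members. No member had an unadjusted p under 0.05, against 4.08% of all genes. Gria1, the AMPA subunit moved by activity, read 847, 749, 658, 794 and 783 CPM at baseline and 811, 716, 711, 712 and 796 after acute stress, and the 2 ranges overlapped. Its log2 fold change was -0.03 with a 95% interval of -0.26 to 0.20. The 3 members with the smallest p were Grin2c, an NMDA subunit, at 0.17 ± 0.09 (SE), Grik1 at -0.20 ± 0.16 and Grin2d at 0.11 ± 0.10, each with an adjusted p of 1.0.

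Members standing for each role lay close to 0 in the same comparison. Grin1 was at 0.05 (95% interval -0.18 to 0.28), Grin2b at -0.01 (-0.43 to 0.42), Gria2 at -0.04 (-0.28 to 0.19) and Grm5 at 0.04 (-0.30 to 0.38). For the scaffolds and signalling genes the values were 0.02 (-0.20 to 0.23) for Dlg4, -0.01 (-0.38 to 0.36) for Shank3, -0.04 (-0.40 to 0.33) for Camk2a, -0.07 (-0.48 to 0.34) for Nrgn and -0.06 (-0.31 to 0.20) for the TARP Cacng8. For 39 of the 40 members the interval lay within a 2-fold change in either direction, and the exception, Homer3, reached -1.05. The members' median was 0.00, as was that of all genes. Of 44 other genes of the pathway, 0 were called and 0 had an unadjusted p under 0.05, and Cacng5, Lrrtm2 and Grip1 had the smallest p, at 0.23, -0.14 and 0.11.

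In DMSO mice Grm8, a presynaptic metabotropic receptor that restrains glutamate release, was lower after acute stress than at baseline. Grm8 read 19.1, 20.4, 18.6 and 22.9 CPM in the baseline DMSO libraries and 14.9, 9.16, 11.5, 15.8 and 13.3 in the acute DMSO libraries. Each acute library was below each baseline library. The log2 fold change was -0.63 ± 0.12 (SE; 0.646-fold, adjusted p = 0.00882), and Grm8 was the 1 member of 40 called lower, with 0 higher, against 1.1% of 15995 genes lower and 1.41% higher. The all-gene count behind these shares ran from 143 without baseline DMSO replicate 1 to 906 without acute DMSO replicate 2, and moved by over 1.5 times with each single library left out except baseline DMSO replicate 4. The call was not made on 3′ UTR reads (-0.59, adjusted p = 0.363) or when the baseline and acute DMSO groups were fitted alone (-0.66).

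Grm8 also held its direction in acute DMSO mice without replicate 2 (-0.52, adjusted p = 0.00413), and it stayed called with any 1 library left out. Which other members were called depended on the library. Without acute DMSO replicate 2, Cacng2 (stargazin, a TARP; 0.49) and Grm3 (0.37) were called higher, with adjusted p of 0.00358 and 0.0477. Without replicate 5, Grm2 (-1.09, adjusted p = 0.00637), Grin2a (-0.57, 0.0217) and Gria1 (-0.32, 0.0485) were called lower. Without the acute DMSO replicates 1, 3 and 4, which are low in glutamatergic markers, 10 members were called, 3 higher and 7 lower, on the 2 libraries that then remain, a setting chosen after seeing the data. Homer3 (1.63), Grik4 (0.93) and Dlgap1 (0.41) were the higher ones, and Grik3 (-0.99), Grm8 (-0.84), Cacng3 (-0.76) and Grm4 (-0.63) were the 4 lowest. The share of all genes called in this setting is not given here, so these 10 calls cannot be set against it.

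The other members did not pass in DMSO mice. Intervals of 29 of 40 lay within 1.5-fold either way, against 38 of 40 in 4sU mice, a count that also depends on the estimates. The fit takes a common spread per gene over its groups, though acute DMSO libraries varied more than acute 4sU libraries. The SD of log2 CPM was 0.324 against 0.065 for Grin1 and 0.312 against 0.0975 for Grm8. These intervals and the p-value of Grm8 thus do not measure the DMSO spread alone. Grin2b was at -0.15 (95% interval -0.60 to 0.30), Gria1 at -0.15 (-0.40 to 0.09), Camk2a at -0.13 (-0.51 to 0.26) and Dlg4 at -0.02 (-0.25 to 0.21). Grm2 came to -0.76 ± 0.25 (adjusted p = 0.116) and was called lower by DESeq2 (-0.77, adjusted p = 0.0478). With Grm8 and Grm2, 3 members had an unadjusted p under 0.05, against 16.5% of all genes. The members' median was -0.08 and that of all genes 0.02. Oligodendrocyte markers moved in the same comparison, with 8 of 10 higher and a median of 0.70, and their part in these values was not tested. Of the 44 other pathway genes 2 fell, Cnih3, an auxiliary AMPA subunit (-0.70 ± 0.12, adjusted p = 0.0038), and the kinase gene Camk2d (-0.47 ± 0.11, adjusted p = 0.024).

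Averaged over both arms, 0 members were called by edgeR against 2.39% of all genes, and 0 by DESeq2. An unadjusted p under 0.05 was found for 2 members, against 13.5% of all genes. Grm8 (-0.25 ± 0.08, adjusted p = 0.146), Grm2 (-0.41 ± 0.17, 0.271) and Grin2c (0.13 ± 0.06, 0.370) had the smallest p. Without acute DMSO replicate 2 the all-gene count was 787, against 382 with it. Cacng2 was called without acute DMSO replicate 2 (0.26, adjusted p = 0.0127) and Grm2 without replicate 5 (-0.57, 0.0246). The difference between the arms (4sU effect minus DMSO effect) was called for 0 members and 0% of all genes. It reached an unadjusted p under 0.05 for 2 members and 5.73% of all genes. It was largest by p for Grm8, at 0.76 ± 0.17 (adjusted p = 0.252), and DESeq2 called this 1 member (adjusted p = 0.0165). Grm2 was at 0.71 ± 0.34 and Cacng2 at -0.30 ± 0.20.

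Chronic stress against baseline in DMSO mice gave 0 called members and 0% of 16096 genes, with 6 members and 5.67% of all genes at an unadjusted p under 0.05. Grm2, an autoreceptor of glutamate terminals, read 12.9, 19.6, 12.9 and 14.7 CPM at baseline and 6.26, 4.71 and 12 after chronic stress. The groups did not overlap, though chronic replicate 3 lay close to the lowest baseline libraries. Its log2 fold change was -0.97 ± 0.25 (adjusted p = 0.553). DESeq2 called it as the 1 member lower (-0.98, adjusted p = 0.039), as did edgeR without chronic DMSO replicate 3 (-1.44, adjusted p = 0.0188).

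Grm8 read 17.4, 10.8 and 13.3 CPM after chronic stress in DMSO mice, again below each of its baseline libraries, at -0.54 ± 0.15 (adjusted p = 0.63). Its acute and chronic values were set against the same 4 baseline libraries. Grin1 came next, at -0.23 ± 0.07 (adjusted p = 0.738), with 246, 233 and 249 CPM against 267 to 304. Members standing for the other roles were near 0: Gria1 at -0.03 (95% interval -0.27 to 0.20), Gria2 at 0.02 (-0.17 to 0.22), Grin2b at -0.02 (-0.32 to 0.27), Camk2a at 0.08 (-0.34 to 0.49) and Nrgn at -0.15 (-0.40 to 0.10). The chronic DMSO libraries were uneven, with glutamatergic marker sums of 260, 987 and 874 CPM in replicates 1 to 3. Camk2a read 919, 1747 and 1597 CPM in them, while Nrgn read 590, 695 and 577. The part of tissue composition in these means was not tested. In the 44 other pathway genes 0 were called and 6 had an unadjusted p under 0.05, with Cnih3 again first, at -0.55 ± 0.16 (adjusted p = 0.688).

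4sU against DMSO under chronic stress, which also lies on one side of the division, gave 0 called members by edgeR and by DESeq2, against 0.137% of all genes. Beside 9.16% of all genes, 3 members had an unadjusted p under 0.05. Those were Grin2c (0.32 ± 0.10, adjusted p = 0.279), Grm2 (0.58 ± 0.25, 0.50) and Grin2d (0.22 ± 0.10, 0.541). Grin1 was at 0.09 (95% interval -0.07 to 0.24), Gria2 at -0.04 (-0.23 to 0.16), Shank3 at -0.03 (-0.27 to 0.20) and Dlg4 at -0.03 (-0.19 to 0.13). Intervals lay within 1.5-fold either way for 34 of the 40 members. Among the 44 other genes 0 were called, and Grip2, which anchors AMPA receptors, had the smallest p, at 0.26 (adjusted p = 0.261).

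At baseline, 4sU mice differed from DMSO mice in most members, and in both directions. Of 40 members 20 were higher and 8 lower, against 27.1% and 25.7% of 16096 genes, and the members' median was 0.31 where that of all genes was 0. All 3 Shank genes, 3 of 5 NMDA subunits (Grin1, Grin2c, Grin2d) and 3 of 4 SAPAP genes were higher. The AMPA subunits were split, with Gria1 higher, Gria2 and Gria4 lower and Gria3 not called.

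Grin1 read 466, 436, 451, 439 and 456 CPM in baseline 4sU mice and 273, 267, 304 and 299 in baseline DMSO mice. The groups were far apart, with a log2 fold change of 0.67 ± 0.07 (adjusted p = 9.41e-08). Antisense Grin1os and Lrrc26 overlap Grin1 exons, so its counts carry some uncertainty about strand. Gria2 lay on the other side, at 621, 560, 496, 593 and 600 CPM against 856, 802, 900 and 849 (-0.55 ± 0.08, adjusted p = 1.94e-05). Within a library the TPM of Gria2 over that of Gria1 was therefore 0.376 to 0.406 in baseline and acute 4sU mice and 0.53 to 0.838 in every other library.

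Among the other members higher in baseline 4sU mice, the smallest p belonged to Grik5 (0.83 ± 0.07, adjusted p = 2.22e-08), the SAPAP scaffold Dlgap4 (0.65 ± 0.06, 7.77e-08) and Iqsec2, which activates Arf proteins at the postsynaptic density (0.59 ± 0.07, 1.28e-06). Dlg4 (0.53 ± 0.07, 2.36e-06) and Shank3, which joins SAPAP and Homer proteins (0.75 ± 0.10, 6.27e-06), came next. Lower were Dlg1, a MAGUK that binds AMPA receptors (-0.48 ± 0.06, 2.81e-06), Grm5 (-0.43 ± 0.06, 5.72e-06), Gria4 (-0.48 ± 0.07, 6.58e-06), the kainate subunit Grik2 (-0.40 ± 0.08, 0.000563) and Cacng2 (-0.26 ± 0.09, 0.0153). The MAGUK and TARP families were thus both split, Dlg3 (0.31) and Cacng8 (0.58) being higher.

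Camk2a was higher by 0.66 ± 0.17 (adjusted p = 0.00538), from 1247, 1216, 1531 and 1405 CPM in baseline DMSO mice to 2398, 1992, 1799, 2155 and 2169 in 4sU mice. Nrgn was not called on exon counts (0.24, adjusted p = 0.0656) and was called lower on 3′ UTR reads (-0.24, adjusted p = 0.0288). Grm3, a receptor of glia and neurons, was called higher on exon counts (0.30) and lower on 3′ UTR reads (-0.90, adjusted p = 0.000312). For both genes the direction thus depends on which reads are counted, and of the 28 members called on exon counts 23 were called the same way on 3′ UTR reads, which called 30. Grm3 was chosen for this after its values were seen.

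Under acute stress, in libraries none of which enter the baseline comparison, 21 members were higher and 4 lower in 4sU than in DMSO mice, against 23.5% and 24.8% of 15995 genes. Without acute DMSO replicate 2 the counts were 19 higher and 7 lower, and Grm5 (-0.48) was among the members then lower. The all-gene count moved as well, from 7106 to 9008 with each library left out in turn. With all libraries the members' median was 0.40 and that of all genes 0. Of the 20 members higher at baseline 18 were higher again (90%, and 85.7% of the 21), and all 4 members lower under acute stress (Gria2, Gria4, Dlg1, Cacng2) had been lower at baseline (50% of those 8). Over all genes, 3056 were higher in both (70.1% of 4360 and 81.4% of 3756) and 3163 lower in both (76.6% of 4129 and 79.7% of 3969). Grm8 went from lower at baseline (-0.34, adjusted p = 0.0404) to higher under acute stress (0.41, adjusted p = 0.00635).

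The smallest p values among the higher members under acute stress were those of Grik5 (0.93 ± 0.09, adjusted p = 1.67e-07), Dlgap4 (0.69 ± 0.09, 4.38e-06), Grin2c (0.66 ± 0.09, 4.66e-06), Grin1 (0.76 ± 0.11, 1.23e-05), Grm2 (1.59 ± 0.24, 1.77e-05) and Shank1 (1.18 ± 0.18, 2.54e-05). Grm2 read 24.5, 21.2, 27.6, 21.4 and 38.1 CPM in acute 4sU mice and 7.21, 9.51, 4.79, 6.86 and 15.5 in acute DMSO mice, 3.01-fold apart in the fit with no overlap. Gria4 (-0.64 ± 0.09, 1.02e-05), Dlg1 (-0.51 ± 0.11, 0.000754), Cacng2 (-0.57 ± 0.14, 0.00221) and Gria2 (-0.45 ± 0.11, 0.00265) were lower. For Gria2 the groups overlap by acute DMSO replicate 2, at 527 CPM, against 678 to 958 in the other 4 and 536 to 594 in acute 4sU mice. In the 44 other pathway genes the counts were 23 higher and 7 lower at baseline and 22 higher and 5 lower under acute stress, led by Begain, Iqsec1 and Nlgn2 (0.75, 0.64 and 0.59) at baseline and by Cnih3, Nlgn2 and Begain (1.23, 0.71 and 0.77) under acute stress.

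**Figure D3:**
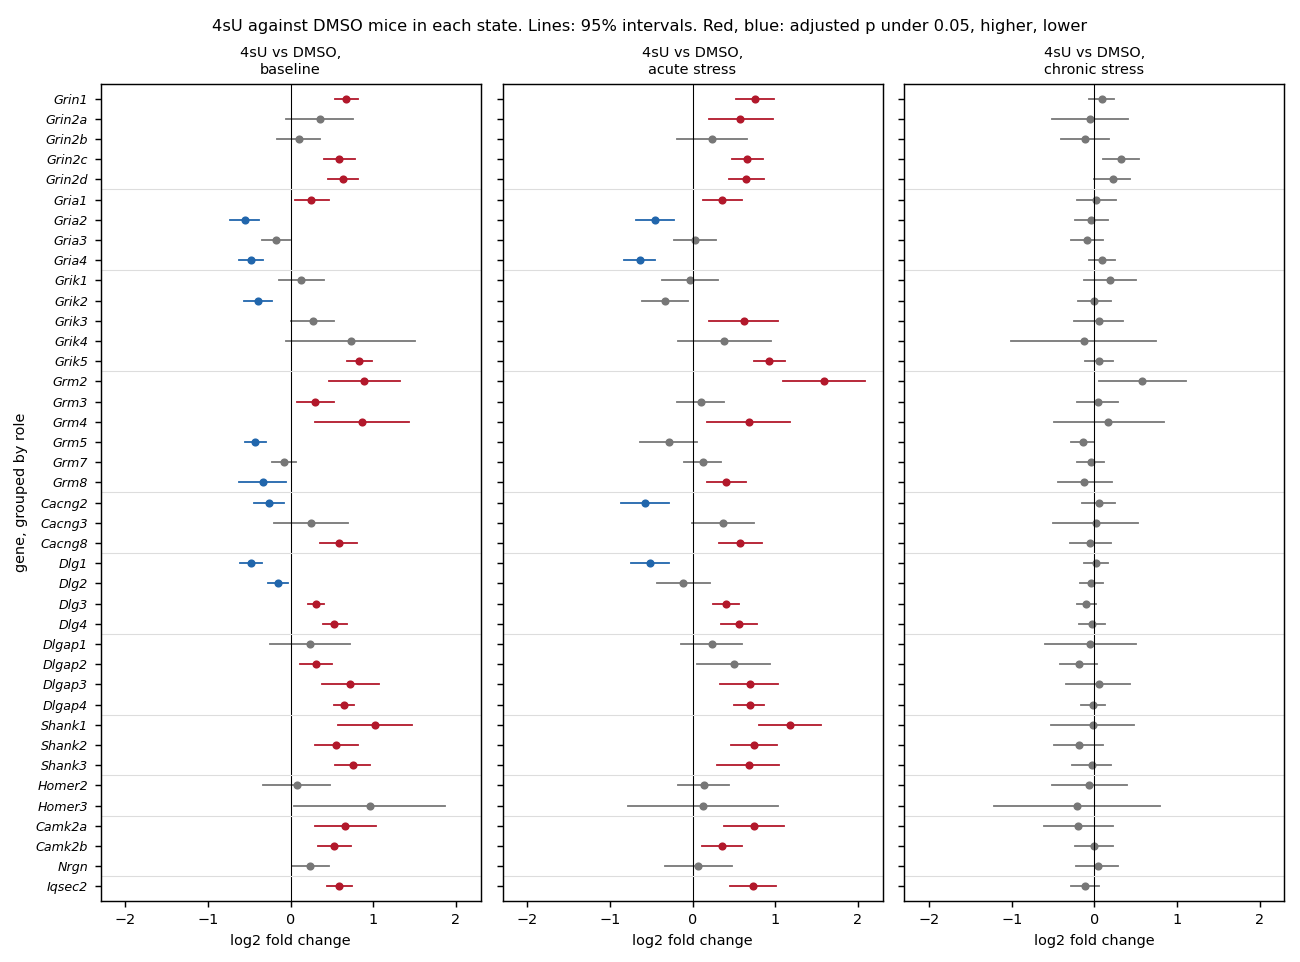
Log2 fold change of 4sU against DMSO mice for each gene, with 95% intervals, at baseline, under acute stress and under chronic stress. Red and blue members are called higher and lower: 20 and 8 at baseline, 21 and 4 under acute stress and 0 under chronic stress.

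The members' differences at baseline went with the T content of their 3′ UTRs. Over the 40 members the share of T in the 3′ UTR interval and the log2 fold change of 4sU against DMSO had a Pearson r of -0.65 at baseline and -0.50 under acute stress, and of -0.10 under chronic stress. Over all genes with an interval the values were -0.44, -0.42 and 0. These correlations are across genes of the same libraries, which are not independent replicates. Grin1 had 17.1% T and Gria2 34.8%. The members called higher at baseline had a median of 26.2% and those called lower 31.4%, with overlapping ranges of 15.9 to 31.5% and 19.6 to 34.8%. Cacng2, lower with 19.6%, and Grin2c and Grm3, higher with 29.7% and 31.5%, were among the members that did not follow the order. All 10 oligodendrocyte markers were lower in baseline 4sU mice as well (median -0.95), and 2 of 9 glutamatergic markers were higher. Also lower were 5 of 6 endothelial and mural, 5 of 8 astrocyte and 3 of 7 microglia markers, with 1 microglia marker higher. Of 8 pan-neuronal markers 3 were higher and 1 lower. In 4sU against DMSO mice under acute stress all 10 oligodendrocyte markers were lower (median -1.55). There 3 of 9 glutamatergic markers were higher and 0 lower (median 1.1). Lower too were 4 of 7 microglia and 5 of 8 astrocyte markers, with 0 and 1 higher. The part of any of these in the members' values was not tested.

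Chronic stress against baseline in 4sU mice crosses the division and uses the same 5 baseline libraries as the 4sU contrast at baseline. In it 6 members were higher and 23 lower, against 26.9% and 29.6% of 16096 genes, with a median of -0.48. Grik5 (-0.94 ± 0.07, adjusted p = 4.08e-09), Grin1 (-0.81 ± 0.07, 7.45e-09), Dlgap4 (-0.69 ± 0.06, 2.87e-08), Iqsec2 (-0.75 ± 0.07, 6.1e-08), Dlg3 (-0.51 ± 0.05, 6.36e-08) and Dlg4 (-0.68 ± 0.07, 1.09e-07) had the smallest p among the lower. The higher members were Gria4 (0.61 ± 0.07, 2.93e-07), Gria2 (0.54 ± 0.08, 2.18e-05), Dlg1 (0.40 ± 0.06, 2.46e-05), Cacng2 (0.38 ± 0.09, 0.000793), Grik2 (0.37) and Grm5 (0.19 ± 0.06, 0.00818). On 3′ UTR reads 24 of these 29 calls were made the same way and 1 the opposite way, Grm3, at -0.28 on exon counts and 1.11 on 3′ UTR reads (adjusted p = 2.27e-05). Grin1 stood at 228, 247, 303 and 261 CPM in chronic 4sU mice, among the values of the DMSO groups. All 10 oligodendrocyte markers were higher in the same comparison (median 1.42), as were 4 of 6 endothelial and mural and 5 of 8 astrocyte markers. Of the astrocyte markers 1 was lower, and of 8 pan-neuronal markers 4 were lower and 1 higher. Of 9 glutamatergic markers 2 were lower and 1 higher (median -0.86). Of 6 markers of GABAergic neurons 2 were lower and 1 higher (median 0.05). The part of these markers in the members' values was not tested. The 44 other pathway genes gave 6 higher and 21 lower, with Begain, Nlgn2 and Ppp1r9b first (-0.84, -0.66 and -0.76).

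The difference between the chronic effects of the 2 arms, which crosses the division too, was called for 5 members higher and 15 lower, against 18.1% and 19.9% of all genes. Grik5 (-0.76), Dlgap4 (-0.66), Iqsec2 (-0.70), Grin1 (-0.58), Dlg3 (-0.41) and Dlg4 (-0.56) were lower in 4sU than in DMSO mice in this respect, and Gria4 (0.57), Dlg1 (0.51), Gria2 (0.52), Grm5 (0.29) and Grik2 (0.40) higher. In DMSO mice alone none of these was called, with Gria2 at 0.02 ± 0.09, Grik5 at -0.17 ± 0.08 and Grin1 at -0.23 ± 0.07. The 44 other genes gave 3 higher and 18 lower, first among them Begain (-0.66), Nlgn2 (-0.60) and Iqsec1 (-0.59). Chronic and baseline 4sU libraries differ in 3′ UTR read share, 18.7 to 20.3% against 16.4 to 17.2%, so stress and this division cannot be told apart here.

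Conversions were read in the 3′ UTR interval of each gene. Overall 0.0478% ± 0.005 (SD, n = 5) of covered T positions read as C in baseline 4sU mice and 0.0275% ± 0.00304 (n = 4) in baseline DMSO mice, where no 4sU was given. Of the 40 members, 34 had a mean of at least 2000 covered T positions and were tested at baseline. A conversion excess in 4sU mice was called for 4, Camk2a, Camk2b, Dlg4 and Shank1, against 7.29% of 8480 genes higher, and for 0 a deficit, against 0.165%. The members' median log2 excess was 0.10 and that of all genes 0.20.

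Camk2a, whose mRNA is known to be carried into dendrites, had 3789 conversions on 3724437 covered T positions in baseline 4sU mice and 741 on 2197619 in DMSO mice. By library this was 0.13, 0.0891, 0.0972, 0.106 and 0.080% against 0.0311, 0.0356, 0.0361 and 0.0317%, with no overlap, and a log2 excess of 1.58 ± 0.20 (adjusted p = 9.99e-14). Camk2b had 0.0501 to 0.0675% against 0.0251 to 0.0382% (0.96 ± 0.22, adjusted p = 0.000218). Dlg4 had 0.0533 to 0.104% against 0.028 to 0.0459% (1.18 ± 0.29, adjusted p = 0.000731). The groups were apart in both genes.

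Shank1, the scaffold that spans the deeper layer of the density, had the highest fitted excess, 3.1 ± 0.68 (adjusted p = 6.67e-05), from 83 conversions on 139155 positions in 4sU mice and 4 on 60793 in DMSO mice. That ratio rests on the few conversions in baseline DMSO libraries, where 2 of 4 had none. By library Shank1 read 0 to 0.0122% in baseline DMSO mice, 0.0145 to 0.0655% in acute and 0.0155 to 0.0562% in chronic DMSO mice. Whether the background without 4sU differs between DMSO groups for this gene was not tested.

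The background without 4sU differed between members. In baseline DMSO mice Nrgn read 0.0855% ± 0.00565 (n = 4) and Gria2 0.0176% ± 0.00268. Nrgn lay above its own background in 4 of 5 baseline 4sU libraries, with 0.129, 0.0855, 0.149, 0.113 and 0.119% against 0.0788 to 0.0913%, but was not called. Gria2 (0.0155 to 0.0453%) and Grin2b (0.0152 to 0.0339% against 0.0198 to 0.0284%) overlapped their background. For the receptor subunits Gria1 (0.0364 to 0.0445% against 0.0336 to 0.0542%) and Grm5 (0.0144 to 0.0366% against 0.0167 to 0.0308%) the ranges overlapped too, so no excess was detectable at this depth. Of the 44 other pathway genes 42 were tested and 10 were higher, first Ppp3r1, Nsf and Ppp3ca (1.72, 1.77 and 1.60).

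**Figure D4:**
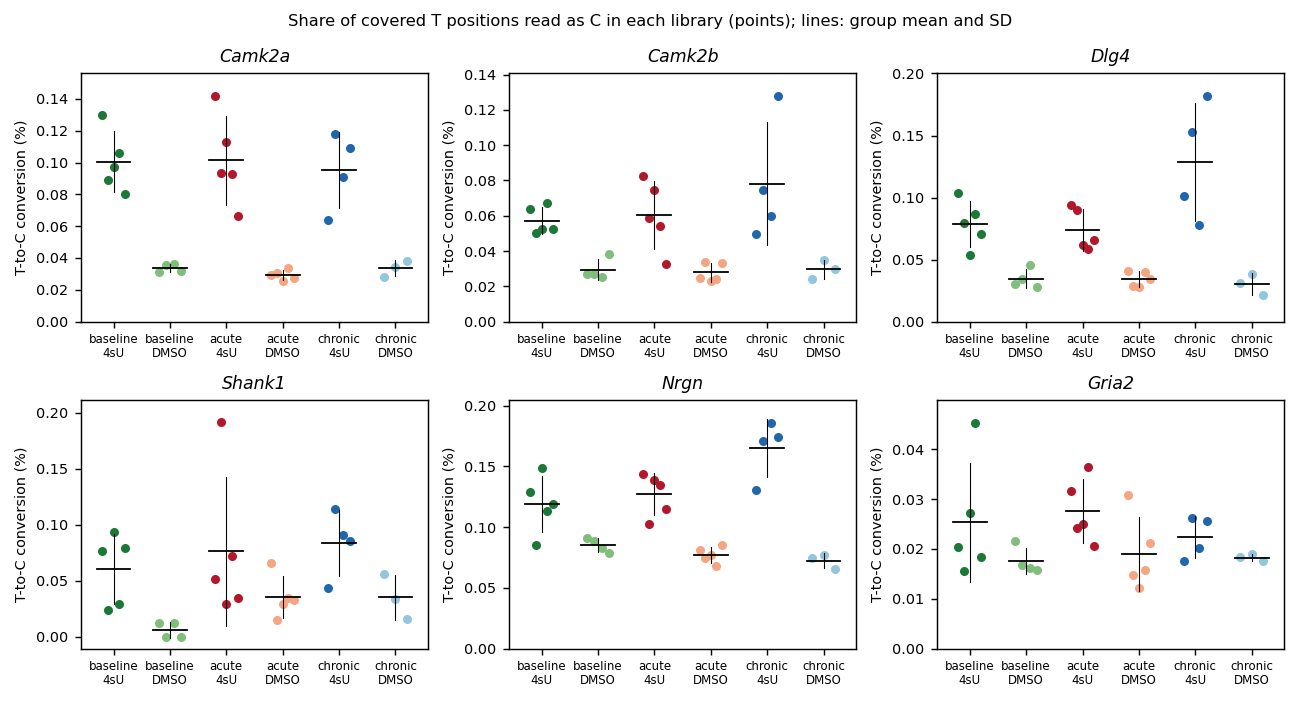
Share of covered T positions read as C in each library for 6 members, with lines at the group mean and SD. The baseline 4sU libraries of Camk2a (0.08 to 0.13%) lie above those of baseline DMSO mice (0.0311 to 0.0361%), while the ranges of Gria2 overlap.

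After rescaling libraries to a common overall rate, 0 of 33 tested members were called for acute stress in 4sU mice, against 0% of 8290 genes. An unadjusted p under 0.05 was found for 1 member, against 5.31% of all genes. Intervals lay within 2-fold either way for 16 of the 33 members, so in the rest larger changes could go unseen. Dlgap1 (-0.65 ± 0.31), Grik2 (0.77 ± 0.41) and Shank3 (-0.59 ± 0.32) had the smallest p, each with an adjusted p of 0.913. Camk2a was at -0.05 (95% interval -0.28 to 0.18) and Nrgn at 0.06 (-0.28 to 0.40). For chronic stress 0 of 34 members were called against 0.236% of 8488 genes. At an unadjusted p under 0.05 were 4 members, against 7.06% of all genes. Here 12 of the 34 intervals lay within 2-fold either way. Camk2a came first at -0.46 ± 0.14 (adjusted p = 0.205), before Gria2 (-0.57 ± 0.26, 0.639) and Homer3 (-1.34 ± 0.64, 0.649). The overall rate itself was 0.0627% ± 0.0135 (n = 4) in chronic and 0.0497% ± 0.00823 (n = 5) in acute 4sU mice, and the 4 Camk2a values after chronic stress, 0.064, 0.118, 0.0912 and 0.109%, overlapped those at baseline. No other tool was run on conversions, and the 44 other genes gave 0 calls in both stress comparisons.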

How the data were processed

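Bulk RNA of 26 amygdala libraries in 6 groups was analysed, and the 6 auditory cortex libraries were not used here. The authors deposited exon counts per gene symbol as whole numbers with exon lengths, in 2 tables that were joined, the baseline values held in both differing in 0 cases. Per the submitters' processing notes the tools were cutadapt 3.1, HISAT2 2.1.0, SAMtools 1.9 and featureCounts 2.0.1 with mm10, with no roles given. The strand setting is not given in the sources used here. For Homer3 (713 bases shared with Ddx49) and Grin1, reads of opposite strands may mix. The authors also deposited per library a slamdunk 0.4.3 table for each RefSeq 3′ UTR interval, per the file headers, with counts of covered T positions, conversions and reads, a conversion rate as a fraction, a CPM column, and the interval's length and T content. For each symbol the interval with the most covered positions was used.

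The count test was edgeR 4.0.16 under R 4.3.3 (TMM, filterByExpr, robust quasi-likelihood, two-sided, Benjamini-Hochberg over all genes tested), with 4 groups in a fit. For conversions edgeR was used with log covered T positions as the offset, where their mean reached 2000, and for stress each library was rescaled to its overall rate. The count test was also run on simulated counts, in the layouts of acute stress in 4sU mice and of chronic stress in DMSO mice. The conversion test was run on simulated conversions for 4sU against DMSO at baseline. No other comparison, rescaled test or tool was simulated. Pairs of replicates of a group differed by more than sampling noise (chi-square per degree of freedom 3.65 to 119), so none was merged. Alternatives were DESeq2 1.42.0, other scaling and filters, other fits, a replicate block, 3′ UTR reads and leaving out libraries. CPM and TPM were computed here from the deposited counts. Confidence intervals rest on the fitted spread between libraries, and counts of conversions cover reads, not molecules.

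The members, lists, tests and alternatives were chosen with earlier results of these data known. Per comparison the text names up to 6 members higher and 6 lower with the smallest p, or 3 where none passes, beside 10 fixed members (Grin1, Grin2b, Gria1, Gria2, Grm5, Dlg4, Shank3, Camk2a, Nrgn, Cacng8); other genes were named after their values were seen. Figures were drawn with matplotlib 3.10.9, and tables handled with Python 3.11.15, pandas 2.3.3, numpy 2.4.6 and SciPy 1.17.1.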

Additional observations from a re-analysis of the deposited data

Results flagged for a closer look

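In 200 combinations of a member and a group, 6 had a library far from the others of its group by Dixon's criterion, which chance alone meets in about 1 in 20 groups. Grin2a stood at 142 CPM in acute DMSO replicate 5, where the next library had 78.6. Gria3 was at 158 CPM in chronic 4sU replicate 1 (next 210), and Grik1 at 22.4 CPM in acute 4sU replicate 2 (next 15.3). Grik2 was at 125 CPM in baseline DMSO replicate 3 (next 145), and Cacng8 at 85.7 CPM in the same library (next 70.9). Grik5 was at 385 CPM in baseline 4sU replicate 1 (next 346).

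The effect of chronic stress differed between 4sU and DMSO mice for 20 members by edgeR's test of the difference itself. Of these 5 were higher and 15 lower, against 18.1% and 19.9% of all genes. The 4sU effect exceeded the DMSO effect for Gria4 by 0.57 (adjusted p = 0.000217), Dlg1 by 0.51 (0.000344), Gria2 by 0.52 (0.00344), Grm5 by 0.29 (0.0147) and Grik2 by 0.40 (0.019) on the log2 scale. The difference was negative for Grik5 (-0.76, adjusted p = 2.18e-05), Dlgap4 (-0.66, 2.21e-05), Iqsec2 (-0.70, 4.86e-05), Grin1 (-0.58, 0.000133), Dlg3 (-0.41, 0.000253) and Dlg4 (-0.56, 0.000255). Of the 4 groups in this difference, only the baseline 4sU libraries lie on the low side of the 3′ UTR read share, so the difference cannot be told apart from that division.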

How the results depend on the processing

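Numbers of called members moved in the comparisons with few calls. For acute stress in DMSO mice (1 called) there were 2 with the replicate block, 2 with DESeq2, 0 on 3′ UTR reads, 0 with the compared groups alone, 10 without the libraries low in glutamatergic markers, a setting chosen after seeing the data, and 1 to 4 with each library left out in turn. For the mean of the arms (0 called) there were 4 without those libraries and 0 to 1 leaving out each, for the difference between the arms (0 called) 1 with DESeq2 and 4 without those libraries, and for chronic stress in DMSO mice (0 called) 1 with DESeq2 and 0 to 1 leaving out each. The all-gene counts beside them ran from 25 to 42 for acute stress in 4sU mice, 249 to 787 for the mean of the arms and 2 to 19 for 4sU against DMSO under chronic stress leaving out each library. Without the libraries low in glutamatergic markers no all-gene share is given, so member counts in that setting cannot be set against it. The cause was not tested. Same-numbered libraries did not clearly deviate together: 3 of 28 pairs correlated over 0.1, and 9 of 56 samples were closest to their own number. The labels do not say whether equal numbers share a source, and these correlations cannot settle it. Beyond the acute DMSO count, the replicate block left the counts at 27 for chronic stress in 4sU mice, 18 for the chronic difference, 26 for 4sU against DMSO at baseline and 26 under acute stress, and 4 for conversion at baseline. Of the other counts, 221 alternatives stayed within 1.5 times. On 3′ UTR reads Nrgn reversed, to 0.09 for chronic stress in 4sU mice and to -0.24 for 4sU against DMSO at baseline, and Grm3 was called the opposite way in both (1.11 and -0.90), while 33 and 36 of the 40 members kept their sign. Of single-gene values, 3225 stayed on the same side of the threshold, 15 gained and 37 lost a call. Few covered T positions left 6 members out of the conversion test.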
